A study of Arabidopsis thaliana with 8 samples.

Results

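The floral MADS-box organ identity genes were followed as 10 Arabidopsis thaliana loci, chosen by name and not by a measured value: APETALA1 (AP1), CAULIFLOWER (CAL), APETALA3 (AP3), PISTILLATA (PI), AGAMOUS (AG), SHATTERPROOF1 (SHP1) and SEPALLATA1 to 4 (SEP1, SEP2, SEP3 and SEP4). A transcript belonged to the set when the first part of its identifier was one of these loci. Of the 10 loci, 9 had ribosome footprints and 8 had footprints on the coding sequence, among 22392 nuclear transcripts with footprints in the series. AP1 was not analysed here.

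The study sequenced ribosome-protected fragments from inflorescences, the flower-bearing shoot tips, to ask how loss of HOT3, the initiation factor eIF5B1 that acts when the ribosomal subunits join at the start codon, alters translation. There were 4 genotypes in the Col-0 background with 2 libraries each. They were wild type (WT), hot3-2 (a T-DNA insertion in HOT3), dcl2 dcl4 (T-DNA insertions in the DICER-LIKE genes DCL2 and DCL4, which make small interfering RNAs), and hot3-2 dcl2 dcl4, which carries all of these alleles. All plants were grown in long days and no group received a treatment. The hot3-2 and hot3-2 dcl2 dcl4 libraries are called carriers and the WT and dcl2 dcl4 libraries non-carriers below. Plant age and the number of plants per library were not given in the sources used here, and the mutations were present in every cell of the sampled tissue. A single insertion allele stands for the loss of HOT3.

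MADS-box transcription factors bind DNA as dimers and assemble into larger complexes, and combinations of them set which organ forms in each whorl of the flower. In the ABC model, class A genes (AP1, with its close relative CAL) act in sepals and petals, the class B genes AP3 and PI act together in petals and stamens, and the class C gene AG acts in stamens and carpels. The class E genes SEP1 to SEP4 act in partly redundant fashion with all of them, and SHP1, an AG relative, acts in the carpel, ovule and fruit valve margin. Translation of each mRNA begins at an ATG, where a ribosome that has placed this codon in its P site waits until the subunits have joined and elongation starts.

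The libraries held between 1972841 and 3588415 listed footprints, of which 1197258 to 2840030 had their P site, the peptidyl site of the ribosome, on a nuclear coding sequence. HOT3 itself had 284 to 370 coding-sequence P sites in the non-carriers and 39 to 74 in the carriers, whereas DCL2 had 0 to 3 and DCL4 1 to 10 in all 8 libraries and so gave no check of those alleles. Over all nuclear genes the start codon held 0.533 to 0.754% of coding-sequence P sites in the non-carriers and 2.28 to 3.74% in the carriers. Markers of other cells also differed between the genotypes. Of 11 tapetum genes 9 could be tested and 7 were lower in the carriers (PKSA, PKSB, ACOS5, AMS, A6, CYP703A2 and A9, median log2 difference of the list -0.82 against -0.01 for all genes), with summed levels of 1263 to 1448 RPM (here P sites per 1000000 coding-sequence P sites of the library, without further normalisation) in non-carriers and 717 to 834 in carriers. All 5 green-tissue genes tested (CAB3, LHCB1.1, LHCB2.1, RBCS1A and RBCS3B) were lower, with overlapping summed levels of 14474 to 19888 against 13631 to 16764. Neither of the 2 pollen genes differed in this contrast by limma's test (1 at an unadjusted p under 0.05), with sums of 188 to 354 against 185 to 330 RPM. Both were lower in dcl2 dcl4 against WT. The log2 difference was -1.32 for VGD1 (adjusted p = 5.94e-10, limma) and -0.48 for PPME1 (adjusted p = 0.0186, limma). VGD1 was also lower in hot3-2 against WT (-0.39, adjusted p = 0.0383, limma) and in hot3-2 dcl2 dcl4 against hot3-2 (-1.18, adjusted p = 4.20e-05, limma). The 2 ovule genes tested did not differ either (0 at an unadjusted p under 0.05), with sums of 68.2 to 80.3 against 75.9 to 91.9 RPM. Of 3 meristem genes CLV3 was at 0 in every library, and the list summed to 47.9 to 67.0 in non-carriers and 44.3 to 63.5 in carriers. Of the 2 meristem genes tested, WUS was lower in carriers (-1.02, adjusted p = 0.0400, limma) but STM did not pass (0.094, adjusted p = 0.782, limma). In whole inflorescences fewer cells of a type cannot be told apart from fewer ribosomes per cell, and the part of tissue composition in the results on the members was not tested.

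The 9 members with footprints lie on all 5 chromosomes, and 1 transcript of each was listed. On TAIR10.1 coordinates CAL (AT1G26310) spans chr1:9099994-9103644 on the minus strand and SEP3 (AT1G24260) chr1:8593536-8596123 on the minus strand. SEP4 (AT2G03710) spans chr2:1129229-1131838 on the plus strand. On chromosome 3, AP3 (AT3G54340) spans chr3:20119140-20121314 and SEP2 (AT3G02310) chr3:464279-467151, both on the minus strand, and SHP1 (AT3G58780) spans chr3:21738160-21742517 on the plus strand. AG (AT4G18960) spans chr4:10382856-10388539 on the plus strand. PI (AT5G20240) spans chr5:6828904-6831515 on the plus strand and SEP1 (AT5G15800) chr5:5151334-5154253 on the minus strand. The annotation gives CAL and AP3 a single isoform each and the other members 2 or more.

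The start codon regions are shown because P sites on these codons are compared below. Each line gives 12 nt of 5′ UTR, the ATG in capitals and the next 15 nt of the first coding exon, 5′ to 3′ on the mRNA strand, from the RefSeq copy of TAIR10.1 (CAL chr1:9103493-9103522, AP3 chr3:20121070-20121099, PI chr5:6829191-6829220, SEP1 chr5:5153750-5153779, SEP3 chr1:8595845-8595874, SEP4 chr2:1129610-1129639).
CAL: attttaagagaaATGggaaggggtagggtt
AP3: agagagaagaatATGgcgagagggaagatc
PI: agagagagaaagATGggtagaggaaagatc
SEP1: taacaaaaagaaATGggaagaggaagagta
SEP3: aagaaaaagaaaATGggaagagggagagta
SEP4: gaaaaagagaggATGggaagagggaaagtt
The nucleotides after the ATG open the MADS domain and are near copies of each other, so short footprints can match more than 1 gene. Of all 28 nt windows in each transcript, 0 in AP3 and 0 in PI were shared with another gene, against 30 in CAL (with AP1, AGL8, SEP3 and SEP4), 7 in SEP1, 5 in SEP2, 11 in SEP3, 10 in SEP4 and 9 in SHP1. Of the 20 nt windows, within the length range of the short footprints, 0 in AP3 and 3 in PI were shared. Those of PI were shared with MYB60, SHP1 and SHP2, and all touched the first 150 nt. The counts were 51 in CAL, 66 in SEP1, 47 in SEP2, 48 in SEP3, 43 in SEP4 and 60 in SHP1. All shared 28 nt windows of CAL, SEP1, SEP2, SEP3 and SEP4 touched the first 150 nt of the coding sequence, and values there are less certain for these 5 genes than for AP3 and PI.

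The coding sequences were not covered alike. In AP3 and CAL, P sites ran to nt 695 of 699 and nt 729 of 768, and 46.9% and 45.0% of them lay beyond the midpoint. In the members with several isoforms the listed P sites stopped early, at nt 363 of 627 in PI, 393 of 789 in SEP1, 311 of 753 in SEP2, 271 of 756 in SEP3 and 168 of 777 in SEP4. The first coding exon, which is 185 nt of coding sequence in CAL and in all 4 SEP genes, 188 nt in AP3 and 255 nt in PI, held 91.7% of the P sites of PI, 64.6% of SEP3, 43.9% of SEP1, 37.1% of SEP2, 30.9% of CAL and 17.2% of AP3. The reading frame of the 28 nt footprints also changed at this border in some genes. In PI 96.2% of 1021 such P sites in the first coding exon were in frame, against 1.23% of 243 in later exons, and in SEP2 94.1% of 101 against 1.35% of 222. In AP3 the shares were 85.2% of 128 and 93.6% of 940, in SEP1 95.4% and 94.9%, and in SEP3 87.2% and 91.3%.

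**Figure D1:**
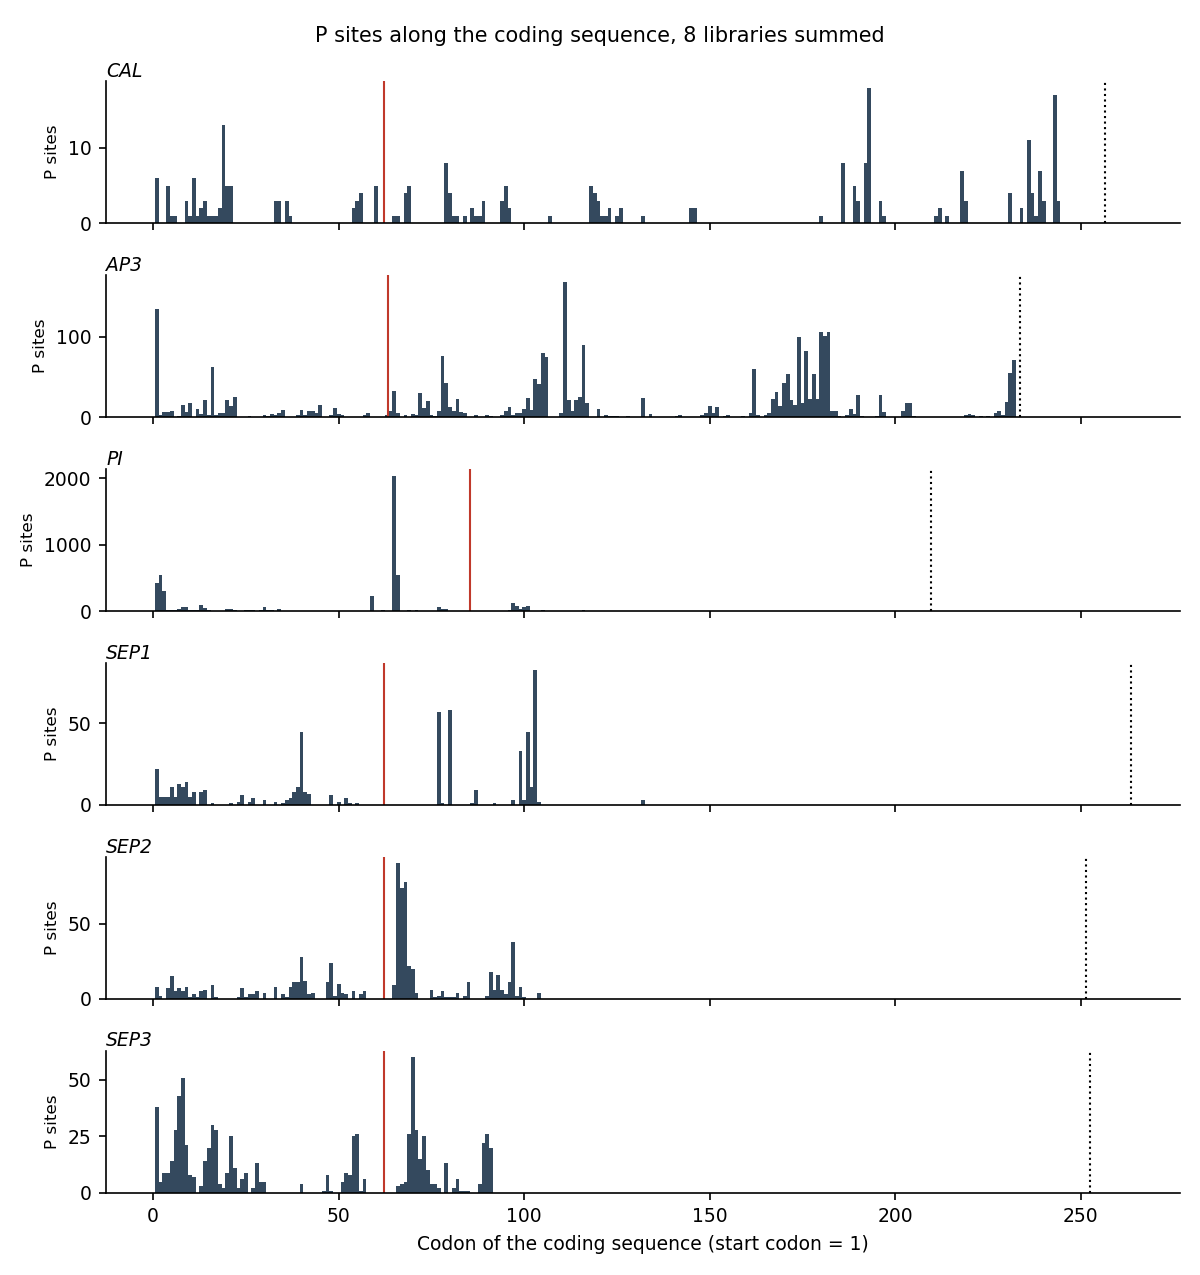
P sites of the 8 libraries summed (y axis, count) at each codon of the listed coding sequence (x axis, start codon = 1), 1 panel per gene. P sites of AP3 and CAL reach the 3′ end, whereas those of PI, SEP1, SEP2 and SEP3 stop at nt 363, 393, 311 and 271, and PI has 1 tall position at nt 192 that holds 31.3% of its P sites.

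PI also carried heaps of P sites. Nucleotide 192 of its coding sequence held 1694 of 5404 P sites and nucleotide 195 another 497, and nucleotides 191 to 196 together held 38.8 to 54.2% of PI's P sites in each library. Nucleotide 5 held 331 as listed. These were 15.3 and 3.27% of PI's P sites in the WT libraries and 9.40 and 10.6% in the hot3-2 libraries. They were 0.661 and 0% in the dcl2 dcl4 libraries, and 0 and 2.18% in the hot3-2 dcl2 dcl4 libraries. No other member had more than 12.6% of its P sites on 1 nucleotide except SHP1 and SEP4, which had 40 and 50 P sites in all.

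Because whole coding sequences were covered to different extents, levels between genes were compared in the first 150 nt, a window of the same length in every gene, scaled to 1000000 P sites in that window over all genes. PI ranked first in every library. In WT it had 1022 and 587 RPM, AP3 202 and 179, SEP3 138 and 174, SEP2 78.5 and 90.4, SEP1 66.1 and 90.4, CAL 22.7 and 27.8, SEP4 20.7 and 11.6, and SHP1 10.3 and 9.27. SEP1 and SEP2 overlapped in WT, and SEP4 and SHP1 were each given by fewer than 14 coding-sequence P sites per WT library. AP3 and SEP3 did not keep their order, since dcl2 dcl4 had 94.2 and 169 RPM for AP3 but 200.2 and 180 for SEP3. PI made up 42.7 to 56.0% of all coding-sequence P sites of the members.

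Counting all listed coding-sequence P sites, both class B genes and CAL were lower in plants with hot3-2. None of the 3 SEPALLATA genes that could be tested passed the threshold. For PI these P sites end at nt 363 of 627. No mRNA levels were set beside these values, so fewer ribosomes per mRNA cannot be told apart from less mRNA. PI fell to 0.739 of its level on average over both backgrounds, AP3 to 0.792 and CAL to 0.560. Levels below are in RPM from all listed coding-sequence P sites, now normalised with trimmed means of M values, unlike the sums and levels above. Differences are log2 with their standard error from limma voom, fitted on all 13307 genes that passed a filter on low counts with 2 libraries per genotype. The 6 members that passed it were CAL, AP3, PI, SEP1, SEP2 and SEP3.

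PI, the class B partner of AP3, had 428 and 359 RPM in the WT libraries, 283 and 343 in the hot3-2 libraries, 378 and 382 in the dcl2 dcl4 libraries, and 249 and 279 in the hot3-2 dcl2 dcl4 libraries. All 4 carriers lay below all 4 non-carriers. How many of all genes separated in this way was not counted, for PI or for the members below. The mean log2 difference between carriers and non-carriers was -0.44 ± 0.08 (SE, Benjamini-Hochberg adjusted p = 1.02e-05 by limma). In hot3-2 against WT it was -0.35 ± 0.10 (adjusted p = 0.0122, limma) and in the dcl2 dcl4 background it was -0.52 ± 0.12 (adjusted p = 0.00115, limma). With the heap at nucleotides 191 to 196 set aside, a choice made after seeing the data, PI had 241 and 164 RPM in the WT libraries, 172 and 210 in the hot3-2 libraries, 185 and 182 in the dcl2 dcl4 libraries, and 115 and 144 in the hot3-2 dcl2 dcl4 libraries, so that the WT and hot3-2 libraries overlapped. The difference in hot3-2 against WT was then -0.09 (adjusted p = 0.744, limma), against -0.51 in the dcl2 dcl4 background (adjusted p = 0.038, limma) and -0.30 on average (adjusted p = 0.038, limma). P sites at nucleotide 5 were kept in these fits, and no fit set aside both heaps. The call in hot3-2 against WT was also lost without WT replicate 1 (-0.21, adjusted p = 0.301, limma), without hot3-2 replicate 1 (-0.18, adjusted p = 0.467, limma), with 28 nt footprints alone (-0.32) and in the first 150 nt (-0.055), and that in the dcl2 dcl4 background was lost without hot3-2 dcl2 dcl4 replicate 1 (-0.41, adjusted p = 0.108, limma) and with 28 nt (-0.50) or 26 to 29 nt footprints (-0.34).

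AP3 had 175 and 177 RPM in the WT libraries, 152 and 144 in the hot3-2 libraries, 199 and 229 in the dcl2 dcl4 libraries, and 154 and 162 in the hot3-2 dcl2 dcl4 libraries. Its carriers also lay below all non-carriers, and the mean log2 difference was -0.34 ± 0.10 (adjusted p = 0.00669, limma). In the dcl2 dcl4 background AP3 differed by -0.43 ± 0.14 (adjusted p = 0.0375, limma), whereas the -0.24 ± 0.13 against WT did not pass (adjusted p = 0.246, limma). The call on average was lost without dcl2 dcl4 replicate 2 and without hot3-2 dcl2 dcl4 replicate 1 (-0.38 to -0.29 over the 8 fits without 1 library). The mean difference was -0.18 with 28 nt footprints (adjusted p = 0.459, limma) and -0.00057 in the first 150 nt alone (adjusted p = 0.999, limma). That window includes the ATG. The ATG held 14 of its 98 and 21 of its 77 P sites in the WT libraries and 43 of 75 and 31 of 48 in the hot3-2 libraries. It held 0 of 32 and 0 of 60 in the dcl2 dcl4 libraries, and 2 of 29 and 23 of 39 in the hot3-2 dcl2 dcl4 libraries. The window without the ATG was not tested. The call in the dcl2 dcl4 background was lost without dcl2 dcl4 replicate 2 and without either hot3-2 dcl2 dcl4 library (-0.45 to -0.34, adjusted p 0.198 to 0.346, limma).

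CAL, which acts with AP1 in specifying the floral meristem, was sparse, with 55 and 40 coding-sequence P sites in the WT libraries, 12 and 19 in the hot3-2 libraries, 46 and 51 in the dcl2 dcl4 libraries, and 19 and 20 in the hot3-2 dcl2 dcl4 libraries. Scaled, these were 20.0 and 15.6, 6.01 and 12.6, 23.0 and 24.3, and 15.6 and 15.2, and the carriers lay below the non-carriers by a narrow margin, 15.59 for the highest carrier against 15.65 for the lowest non-carrier. The mean log2 difference was -0.84 ± 0.29 (adjusted p = 0.0322, limma). This call was lost in 6 of the 8 fits that left out 1 library (each one but WT replicate 2 and hot3-2 replicate 2), with log2 differences between -1.04 and -0.52 over the 8, and with 28 nt footprints alone (-0.82, adjusted p = 0.276, limma).

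None of the 3 class E genes tested (SEP1, SEP2 and SEP3) passed. SEP3, whose product bridges the class B and C proteins, had 53.0 and 54.0 RPM in the WT libraries, 43.6 and 41.0 in the hot3-2 libraries, 56.5 and 61.6 in the dcl2 dcl4 libraries, and 54.2 and 42.6 in the hot3-2 dcl2 dcl4 libraries, with a mean log2 difference of -0.31 ± 0.16 (adjusted p = 0.184, limma). SEP1 had 25.4 and 36.8, 37.6 and 37.7, 28.5 and 41.0, and 45.9 and 44.1 in the same order of genotypes, with a difference of 0.35 ± 0.19 (adjusted p = 0.202, limma). SEP2 had 56.7 and 49.3, 46.1 and 41.0, 40.5 and 31.5, and 59.1 and 41.0, with a difference of 0.10 ± 0.17 (adjusted p = 0.774, limma). In all 3 genes the carriers and non-carriers overlapped.

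Of the 6 members 3 passed the test for the mean hot3-2 effect, all lower, against 17.8% of all genes tested, of which 1127 were higher and 1243 lower, and the median over the 6 was -0.33 against -0.01 over all genes. In hot3-2 against WT 1 of 6 passed (PI), against 14.4% of all genes. In hot3-2 dcl2 dcl4 against dcl2 dcl4 2 of 6 passed (PI and AP3), against 8.89%. In dcl2 dcl4 against WT 0 of 6 passed by limma, against 5.33% of all genes, and 2 had an unadjusted p under 0.05, AP3 at 0.28 ± 0.12 and SEP2 at -0.57 ± 0.22. The difference between the hot3-2 effects of the 2 backgrounds passed for 0 of 6 by limma, against 1.16% of all genes, with 1 at an unadjusted p under 0.05 (SEP2, 0.73 ± 0.34). For PI that difference was -0.18 ± 0.16 and for AP3 -0.19 ± 0.19, so the hot3-2 effect on these genes was not shown to differ between the backgrounds. In the first 150 nt alone 5989 genes could be tested and 14.6% passed. PI was lower there on average (-0.42, adjusted p = 0.0474, limma) and no other member passed. A 20 nt fragment of PI from nucleotide -7 to 12 made up 178 of 495 and 29 of 253 P sites of this window in WT. It made up 53 of 274 and 55 of 239 in hot3-2. In dcl2 dcl4 it was 80 of 232 and 77 of 240, and in hot3-2 dcl2 dcl4 12 of 83 and 8 of 116. The window without this fragment was not tested.

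**Figure D2:**
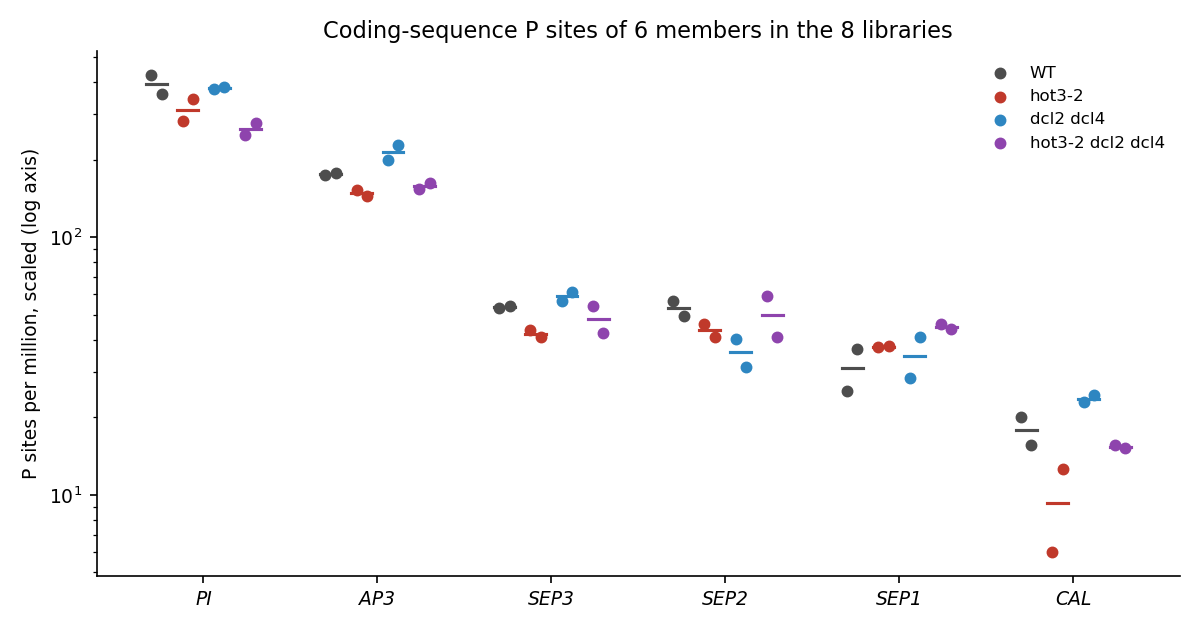
Scaled coding-sequence P sites per 1000000 (RPM, y axis, log scale) of the 6 members tested, with 1 point per library coloured by genotype. The 4 hot3-2 carriers lie below the 4 non-carriers in PI (249 to 343 against 359 to 428), AP3 (144 to 162 against 175 to 229) and CAL (6.01 to 15.59 against 15.65 to 24.3), and the groups overlap in SEP1, SEP2 and SEP3.

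Of the other regulators of flower development, 22 were listed, 19 had coding-sequence P sites and 15 could be tested. In the mean hot3-2 effect 0 were higher and 1 was lower, where 17.8% of all genes passed, and the median was 0.07. Over all genes the median was -0.01. The one that fell was WUSCHEL (WUS), the stem cell organiser of the meristem that also helps to switch on AG, at -1.02 ± 0.37 (adjusted p = 0.0400, limma), with 53 and 51 P sites in the WT libraries, 18 and 15 in the hot3-2 libraries, 20 and 35 in the dcl2 dcl4 libraries, and 6 and 10 in the hot3-2 dcl2 dcl4 libraries. None of the 15 passed by limma in hot3-2 against WT, in hot3-2 dcl2 dcl4 against dcl2 dcl4 or in dcl2 dcl4 against WT, where 2, 4 and 4 had an unadjusted p under 0.05 and 14.4%, 8.89% and 5.33% of all genes passed. The 3 genes whose scaled level followed that of PI most closely over the 8 libraries, among 13306 compared, were the histone H2B gene HTB4 (mean absolute log2 difference 0.0530 after centring), GDI2, a RAB GDP dissociation inhibitor (0.0600), and AT5G01750, a LURP-one-like gene (0.0605).

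The class B genes PI and AP3 rose at the start codon in hot3-2. The start codon share is the percentage of a gene's coding-sequence P sites that lie on the 3 nt of its ATG, and in hot3-2 it rose from 1.95 and 2.51% to 12.1 and 13.1% in PI and from 2.91 and 4.64% to 14.1 and 14.2% in AP3. Effects on shares are log2 odds ratios with their standard error, tested with a quasi-binomial model whose dispersion was moderated with limma over the 2096 genes with enough P sites, among them AP3, PI, SEP1, SEP2 and SEP3.

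The positions depend on how each P site was placed. For footprints of 19 to 25 nt the listed P site lay 12 to 13 nt from the first nucleotide in both WT libraries, both hot3-2 libraries and hot3-2 dcl2 dcl4 replicate 2, but 7 to 9 nt from it in both dcl2 dcl4 libraries and hot3-2 dcl2 dcl4 replicate 1, while 28 nt footprints had 12 nt in all 8. Footprints of 26 nt had 12 nt in the first set of libraries and 10 nt in the second. Those of 27 nt had 12 nt in both WT libraries and hot3-2 replicate 1, and 11 nt in the others. Those of 30 nt had 15 nt in both dcl2 dcl4 libraries and 13 nt in the others. The start codon P sites of AP3 and PI came mostly from the short footprints, 43 of 43 and 29 of 31 for AP3 in hot3-2 and 82 of 86 and 80 of 85 for PI in dcl2 dcl4. For this reason the shares are given with the P sites as listed, with 28 nt footprints only, and with 1 offset of 12 nt for every length and library, an alternative chosen after seeing the data.

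Taking the P sites as listed, the start codon share of PI, with its Wilson 95% interval, was 1.95% (1.30 to 2.91) and 2.51% (1.68 to 3.74) in the WT libraries and 12.1% (9.62 to 15.0) and 13.1% (10.5 to 16.3) in the hot3-2 libraries. It had 11.4% (9.30 to 13.8) and 10.6% (8.67 to 13) in the dcl2 dcl4 libraries, and 10.2% (7.30 to 14.2) and 8.99% (6.47 to 12.4) in the hot3-2 dcl2 dcl4 libraries. Only WT was low. PI rose in hot3-2 against WT by 2.67 ± 0.33 (adjusted p = 1.23e-05, limma) and in dcl2 dcl4 against WT by 2.45 ± 0.32 (adjusted p = 3.41e-04, limma), while in hot3-2 dcl2 dcl4 against dcl2 dcl4 the effect was -0.22 ± 0.29 (adjusted p = 0.521, limma). The mean hot3-2 effect was 1.22 ± 0.22 (adjusted p = 3.83e-04, limma), and the effects in the 2 backgrounds differed by -2.89 ± 0.44 (adjusted p = 0.00434, limma), a difference that no longer passed in 7 of the 8 fits without 1 library (-3.05 to -2.68, all but the one without hot3-2 dcl2 dcl4 replicate 1).

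The footprints behind this are shown because the same fragment was placed on different codons in different libraries. They are a 20 nt fragment of PI that starts 7 nt 5′ of the ATG (chr5:6829196-6829215, plus strand) and a 28 nt fragment that starts 12 nt 5′ of it (chr5:6829191-6829218, plus strand), with the ATG in capitals.
PI 20 nt footprint: gagaaagATGggtagaggaa
PI 28 nt footprint: agagagagaaagATGggtagaggaaaga
The 20 nt fragment was listed 178 and 29 times in the WT libraries, 53 and 55 times in the hot3-2 libraries, 80 and 77 times in the dcl2 dcl4 libraries, and 12 and 8 times in the hot3-2 dcl2 dcl4 libraries. Its P site was given as nucleotide 5, in the second codon, in WT, hot3-2 and hot3-2 dcl2 dcl4 replicate 2, but as nucleotide 2, the last of the ATG, in dcl2 dcl4 and hot3-2 dcl2 dcl4 replicate 1. The 28 nt fragment, with its P site on nucleotide 0 in every library, was listed 4 and 2 times in the WT libraries, 16 and 17 times in the hot3-2 libraries, 1 and 5 times in the dcl2 dcl4 libraries, and 1 and 2 times in the hot3-2 dcl2 dcl4 libraries. A 20 nt fragment of AP3 from 12 nt 5′ of the ATG to nucleotide 7 was listed 9 and 17 times in the WT libraries, 34 and 13 in the hot3-2 libraries, 2 and 1 in the dcl2 dcl4 libraries, and 6 and 13 in the hot3-2 dcl2 dcl4 libraries, and its P site was nucleotide 0 in the first set of libraries and nucleotide -3 in the second.

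**Figure D3:**
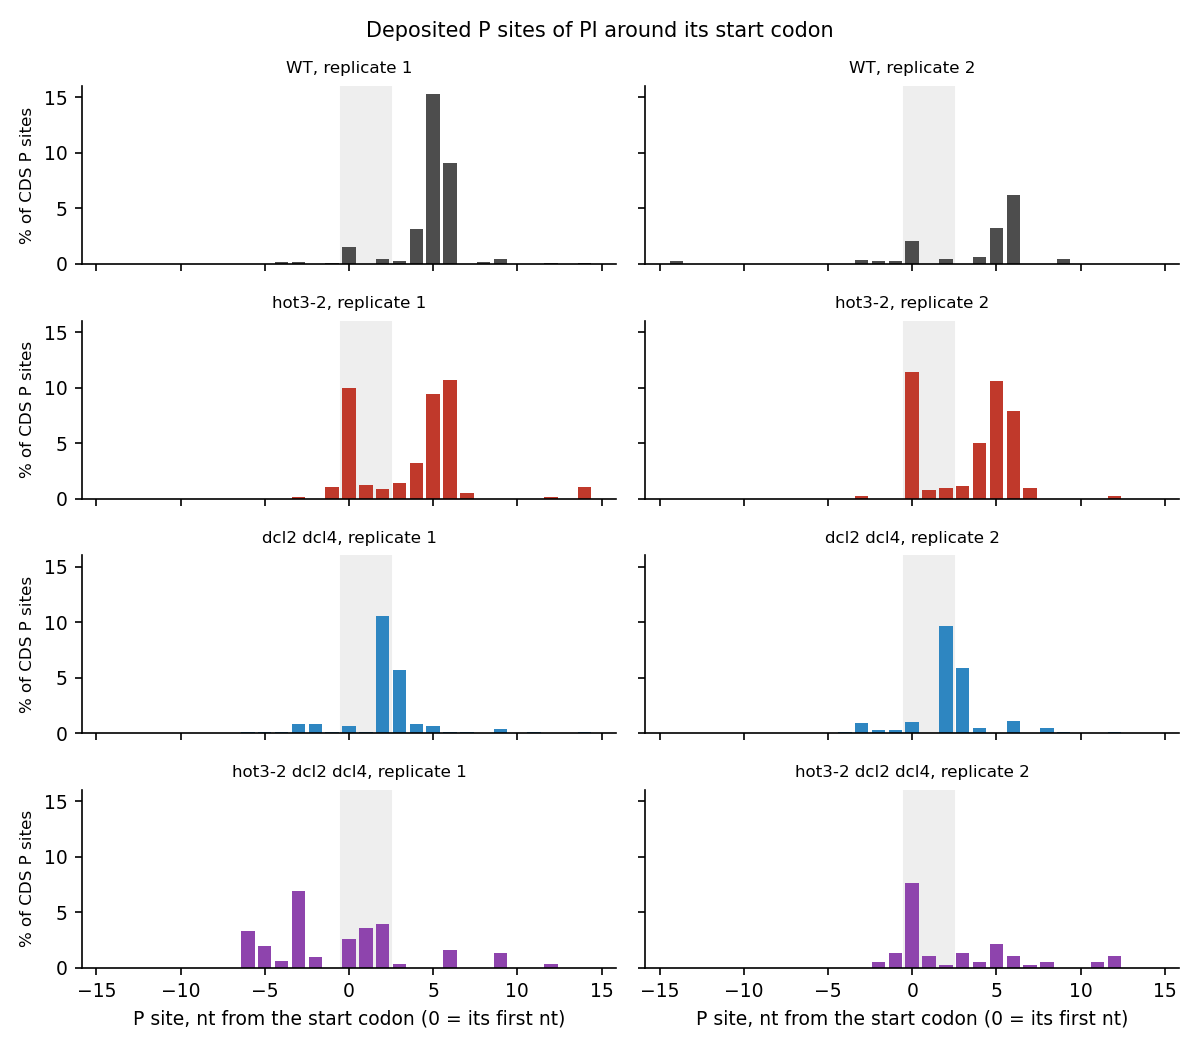
Listed P sites of PI around its start codon, as a percentage of its coding-sequence P sites (y axis) against the distance from the first nucleotide of the ATG (x axis, nt), 1 panel per library, with the 3 nt of the ATG shaded. The P sites of the 20 nt fragment are counted at nucleotide 5 in WT and hot3-2 and at nucleotide 2 in both dcl2 dcl4 libraries.

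In 28 nt footprints alone PI had 1.43 and 0.833% in the WT libraries, 11 and 13.1% in the hot3-2 libraries, 0.565 and 3.23% in the dcl2 dcl4 libraries, and 1.67 and 2.60% in the hot3-2 dcl2 dcl4 libraries. Here the hot3-2 libraries had the highest values. Those of hot3-2 dcl2 dcl4 rest on 1 of 60 and 2 of 77 P sites. Their Wilson intervals (0.295 to 8.86 and 0.715 to 8.98) overlap those of hot3-2 (6.86 to 17.1 and 8.33 to 19.9). PI was the 1 member among the 730 genes that could be tested on these footprints, and it rose in hot3-2 against WT (3.44 ± 0.89, adjusted p = 2.57e-05, limma), where 47.5% of the genes tested passed. The effect in the dcl2 dcl4 background was 0.39 (adjusted p = 0.901, limma), and the effects of the 2 backgrounds differed by -3.06 (adjusted p = 0.479, limma). AP3 had 1 start codon P site from a 28 nt footprint, in WT replicate 1.

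AP3 had listed shares of 2.91% (1.74 to 4.83) and 4.64% (3.05 to 6.98) in the WT libraries, 14.1% (10.7 to 18.5) and 14.2% (10.2 to 19.5) in the hot3-2 libraries, 0% in both dcl2 dcl4 libraries (up to 0.954 and 0.796), and 1.06% (0.292 to 3.80) and 10.8% (7.30 to 15.7) in the hot3-2 dcl2 dcl4 libraries. The rise in hot3-2 against WT was 2.07 ± 0.51 (adjusted p = 0.00481, limma), and it did not pass without WT replicate 1, hot3-2 replicate 1 or hot3-2 replicate 2 (1.74 to 2.09, adjusted p 0.0566 to 0.0789, limma). In dcl2 dcl4 the ATG held 0 of 878 coding-sequence P sites in the 2 libraries, where 3 counts over the group would be 0.342%, against 25 of 401 (6.23%) in hot3-2 dcl2 dcl4 (adjusted p = 0.00368, limma). Of these 25, 23 were in replicate 2. The other 2 were in replicate 1, the library whose short footprints were placed as in the dcl2 dcl4 libraries. This did not pass without either dcl2 dcl4 library or without hot3-2 dcl2 dcl4 replicate 2 (adjusted p 0.0547 to 0.174, limma). The mean hot3-2 effect also passed (adjusted p = 2.34e-04, limma), and its fitted size depends on the 0.5 added to each count. In dcl2 dcl4 against WT the share of AP3 did not pass (adjusted p = 0.0847, limma).

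SEP3 had 3.42 and 3.62% in the WT libraries, 16.1 and 8.06% in the hot3-2 libraries, 2.65 and 0% in the dcl2 dcl4 libraries, and 0 and 10.7% in the hot3-2 dcl2 dcl4 libraries, from at most 14 start codon P sites in a library. Its mean hot3-2 effect of 1.95 ± 0.88 did not pass (adjusted p = 0.0671, limma). SEP1, with 22 start codon P sites in all, had 8.57 and 5.32% in the WT libraries, 5.33 and 5.26% in the hot3-2 libraries, 1.75 and 0% in the dcl2 dcl4 libraries, and 1.79 and 3.45% in the hot3-2 dcl2 dcl4 libraries (mean effect 0.63 ± 1.1, adjusted p = 0.565, limma). SEP2 had 8 start codon P sites in all, and its share reached 5.56% in hot3-2 dcl2 dcl4 replicate 1 and at most 1.85% elsewhere (mean effect 1.51 ± 1.49, adjusted p = 0.412, limma).

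With the P sites as listed, 2 of 5 members (AP3 and PI) passed the test of the mean hot3-2 effect, against 57.1% of all genes, of which 1194 of 1197 rose. In hot3-2 against WT the same 2 passed, against 40.3% of all genes, and in the dcl2 dcl4 background 1 passed (AP3), against 31.4%. In dcl2 dcl4 against WT 1 of 5 passed (PI), against 0.763%, and the difference between backgrounds passed for 1 of 5 (PI), against 0.0954%, or 2 genes of 2096.

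Within each set of libraries whose short footprints were placed alike, the comparisons gave other values. In the libraries with offsets of 12 to 13 nt, PI had 2.19% of 2096 P sites on the ATG in the 2 non-carriers (WT) and 11.7% of 1449 in the 3 carriers, AP3 had 3.75% of 934 and 13.2% of 735, and SEP3 had 3.52% of 284 and 12.2% of 205. In the libraries with offsets of 7 to 9 nt, which hold 2 non-carriers and 1 carrier, PI had 11% of 1556 and 10.2% of 303, AP3 had 0% of 878 and 1.06% of 188, and SEP3 had 1.24% of 242 and 0% of 66. Each of these rests on 3 or 5 libraries and was given no test.

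With 1 offset of 12 nt for every footprint, the 3 genes fell into the same order of groups. PI then had 1.70 and 2.72% in the WT libraries, 10.8 and 11.6% in the hot3-2 libraries, 1.56 and 1.85% in the dcl2 dcl4 libraries, and 9.73 and 8.22% in the hot3-2 dcl2 dcl4 libraries. AP3 had 3.51 and 4.64%, 16.1 and 15.8%, 0.499 and 0.622%, and 12.7 and 11.2% in the same order. SEP3 had 6 and 3.62%, 23.2 and 16.2%, 0.877 and 2.27%, and 14.5 and 15.3%. In each of the 3 genes all 4 carriers lay above all 4 non-carriers. As listed, the share over all nuclear genes was also higher in every carrier, 2.28 to 3.74% against 0.533 to 0.754%.

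Of the 4 members among the 2069 genes tested in this way, PI (2.50 ± 0.29, adjusted p = 1.06e-10, limma), AP3 (3.30 ± 0.48, adjusted p = 1.38e-10, limma) and SEP3 (2.77 ± 0.62, adjusted p = 2.92e-05, limma) rose on average, against 60.6% of all genes, and SEP1 had -1.48 (adjusted p = 0.180, limma). The same 3 passed in hot3-2 against WT, with effects of 2.51, 2.16 and 2.28, against 45.8% of all genes, and in the dcl2 dcl4 background, with 2.48, 4.45 and 3.26, against 40.2%. In dcl2 dcl4 against WT, PI did not pass (-0.32, adjusted p = 0.822, limma) and AP3 was lower (-2.77 ± 0.89, adjusted p = 0.0457, limma), 1 of 4 members against 0.822% of all genes. The difference between backgrounds for PI was -0.03 (adjusted p = 1.00, limma).

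**Figure D4:**
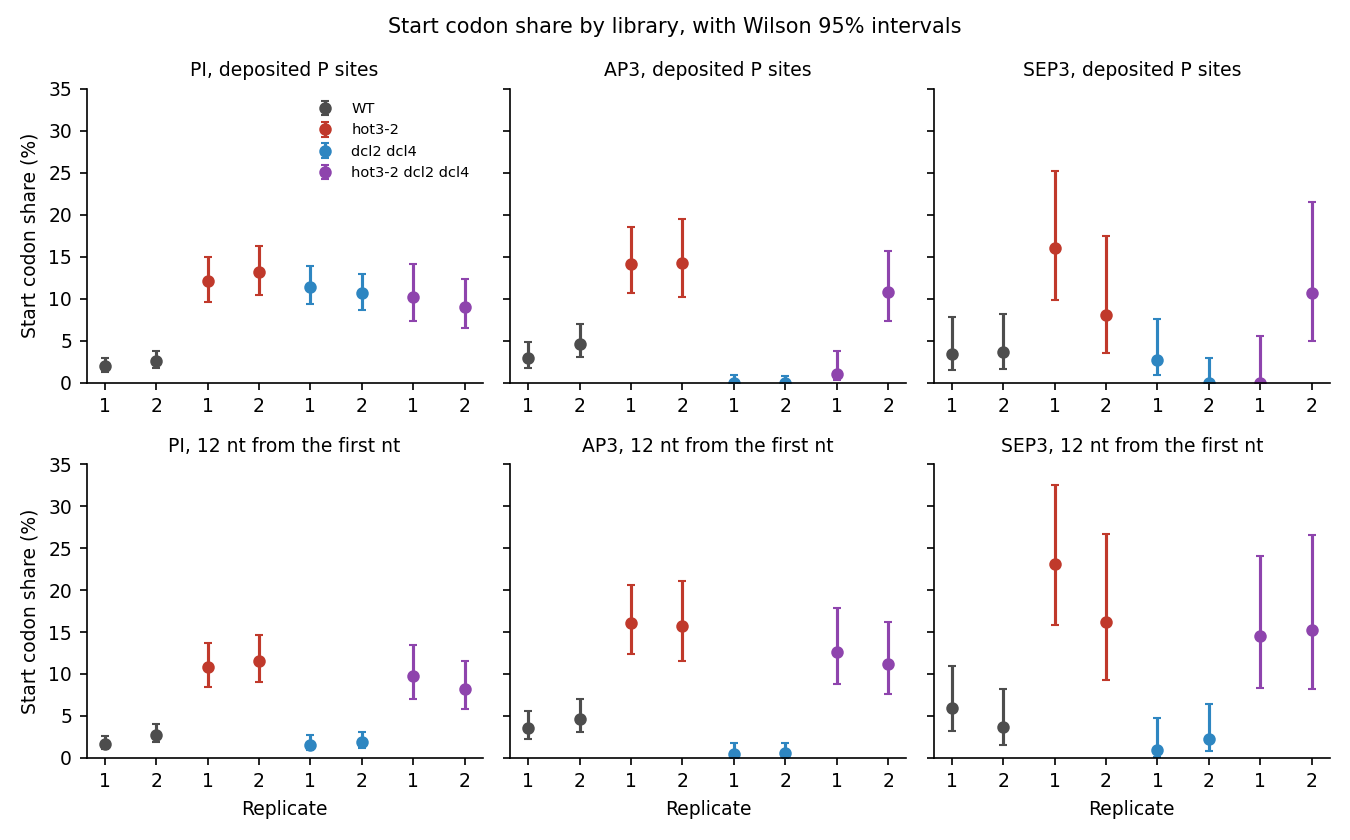
Start codon share (y axis, percent of coding-sequence P sites) of PI, AP3 and SEP3 in each library. The x axis gives replicates 1 and 2 of each genotype, coloured by genotype. The Wilson 95% intervals take each footprint as a separate molecule and cover counting error at most. The top row uses the P sites as listed and the bottom row 1 offset of 12 nt, where the carriers lie between 8.22 and 23.2% and the non-carriers between 0.499 and 6%.

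Summed over the members, the start codon held 2.33 and 3.09% of coding-sequence P sites as listed in the WT libraries, 11.6 and 11.9% in the hot3-2 libraries, 6.28 and 5.36% in the dcl2 dcl4 libraries, and 5.35 and 8.37% in the hot3-2 dcl2 dcl4 libraries. Without PI the same shares were 2.81 and 3.71%, 11.1 and 10.4%, 0.847 and 0.243%, and 1.72 and 7.80%. PI therefore supplied most of the start codon P sites of the members in dcl2 dcl4.

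In the 5′ UTR, AP3, SEP2 and SEP3 had a larger share of their listed P sites in every carrier than in any non-carrier. Of these P sites, 0 of 95 in AP3 and 4 of 40 in SEP3 lay more than 15 nt from the ATG. In SEP2 177 of 183 did. The 5′ UTR share is the percentage of P sites in the 5′ UTR among those in the 5′ UTR and coding sequence, tested in the same way over 3057 genes, 5 of them members. Over all nuclear genes this share was also higher in every carrier, 5.14 to 7.30% against 2.49 to 3.23% in the non-carriers. How many single genes separated in this way was not counted. SEP2 had 9.30% (5.81 to 14.6) and 10.6% (6.55 to 16.8) in the WT libraries, 24.0% (17.2 to 32.3) and 39.8% (30.9 to 49.5) in the hot3-2 libraries, 18.2% (11.8 to 26.9) and 21.4% (14 to 31.3) in the dcl2 dcl4 libraries, and 23.4% (16.0 to 32.9) and 30.8% (21.6 to 41.7) in the hot3-2 dcl2 dcl4 libraries. AP3 had 0.825 and 0.658%, 3.18 and 8.40%, 1.24 and 0.622%, and 17.5 and 4.48%. SEP3 had 2.67 and 1.43%, 8.42 and 8.82%, 0.877 and 3.01%, and 15.4 and 5.08%.

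The mean hot3-2 effect passed for AP3 (3.28 ± 0.85, adjusted p = 0.0261, limma), SEP3 (2.28 ± 0.62, adjusted p = 0.0383, limma) and SEP2 (1.30 ± 0.34, adjusted p = 0.0395, limma), 3 of 5 members against 16.0% of all genes. PI (0.95 ± 0.85, adjusted p = 0.484, limma) and SEP1 (0.61 ± 0.46, adjusted p = 0.358, limma) did not pass. By the same test 0 of 5 passed in hot3-2 against WT, against 3.43% of all genes, with 3 at an unadjusted p under 0.05 (SEP2 2.03 ± 0.46, adjusted p = 0.0545, limma). In the dcl2 dcl4 background 0 passed, against 4.61%, with 3 at an unadjusted p under 0.05, and in dcl2 dcl4 against WT 0 passed, against 0% of all genes, with 0 at an unadjusted p under 0.05. AP3 kept its call in 2 of 11 alternatives, SEP3 in 1 of 10 and SEP2 in 4 of 12. Of the fits that left out 1 library, the one without hot3-2 replicate 1 kept SEP2 (0.0652 to 0.119 for the adjusted p of the other 7, limma) and lost SEP3.

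The 5′ UTR P sites lay in different places. In AP3 0 of 95, in PI 6 of 105 and in SEP3 4 of 40 were more than 15 nt from the ATG, against 56 of 65 in SEP1, 177 of 183 in SEP2 and 18 of 18 in SEP4. At nucleotide -3, where the 20 nt fragment of AP3 was placed in the libraries with the smaller offsets, AP3 had 46 P sites, PI 41 and SEP3 31, of which hot3-2 dcl2 dcl4 replicate 1 held 23, 21 and 10. An 18 nt fragment of AP3 with the same first nucleotide, 12 nt 5′ of the ATG, was also placed there. It was listed 2 and 0 times in the WT libraries, 7 and 9 in the hot3-2 libraries and 6 in hot3-2 dcl2 dcl4 replicate 1. With 1 offset of 12 nt the ATG in hot3-2 dcl2 dcl4 replicate 1 held 27 P sites of AP3 and 11 of SEP3. As listed it held 2 and 0. The part of footprints placed next to the ATG in the 5′ UTR effects of AP3 and SEP3 was not tested. Without the 15 nt next to the ATG, 2246 genes could be tested and 18.3% passed in the mean hot3-2 effect. SEP2 was among them (1.26 ± 0.33, adjusted p = 0.0373, limma), and it also passed in hot3-2 against WT (1.97, adjusted p = 0.0406, limma). SEP1 was the other member tested there.

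SEP1 and SEP2, a closely related pair, share a short upstream open reading frame in the 5′ UTR, a start codon with a stop codon after 7 codons that ends before the main ATG. It is shown because most of the 5′ UTR P sites of SEP2 lay on it, with its start and stop codons in capitals (SEP1 chr5:5153833-5153856 and SEP2 chr3:466773-466796, both minus strand).
SEP1 upstream frame: ATGtttttgtgtgtctgtataTAG
SEP2 upstream frame: ATGtttctgtgtgtctgtataTAG
Going from SEP2 to SEP1 the 24 nt differ by C7T, counted from 1 at the A of the upstream start codon. In SEP2 the frame lies at nucleotides -109 to -86 and held 115 of 183 5′ UTR P sites, 74 of them (64.3%) in its own reading frame and 34 on its start codon. In SEP1 it lies at -89 to -66 and held 9 of 65, 1 of them (11.1%) in its own reading frame and 0 on its start codon.

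Per library the SEP2 upstream frame had 13 and 12 P sites in the WT libraries, 12 and 15 in the hot3-2 libraries, 17 and 15 in the dcl2 dcl4 libraries, and 12 and 19 in the hot3-2 dcl2 dcl4 libraries. Per 1000 coding-sequence P sites of SEP2 these were 83.3 and 95.2, 130 and 242, 210 and 227, and 167 and 352. WT had the 2 lowest values, and the carriers and dcl2 dcl4 overlapped. The rest of the SEP2 5′ UTR held fewer P sites outside hot3-2. Upstream of the frame there were 0 and 1 in the WT libraries, 8 and 16 in the hot3-2 libraries, 0 and 3 in the dcl2 dcl4 libraries, and 6 and 1 in the hot3-2 dcl2 dcl4 libraries, with 7 and 9 of the hot3-2 ones on nucleotide -180. Between the frame and the ATG there were 3 and 2, 9 and 10, 1 and 0, and 4 and 4. These counts are small and were described without a test.

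**Figure D5:**
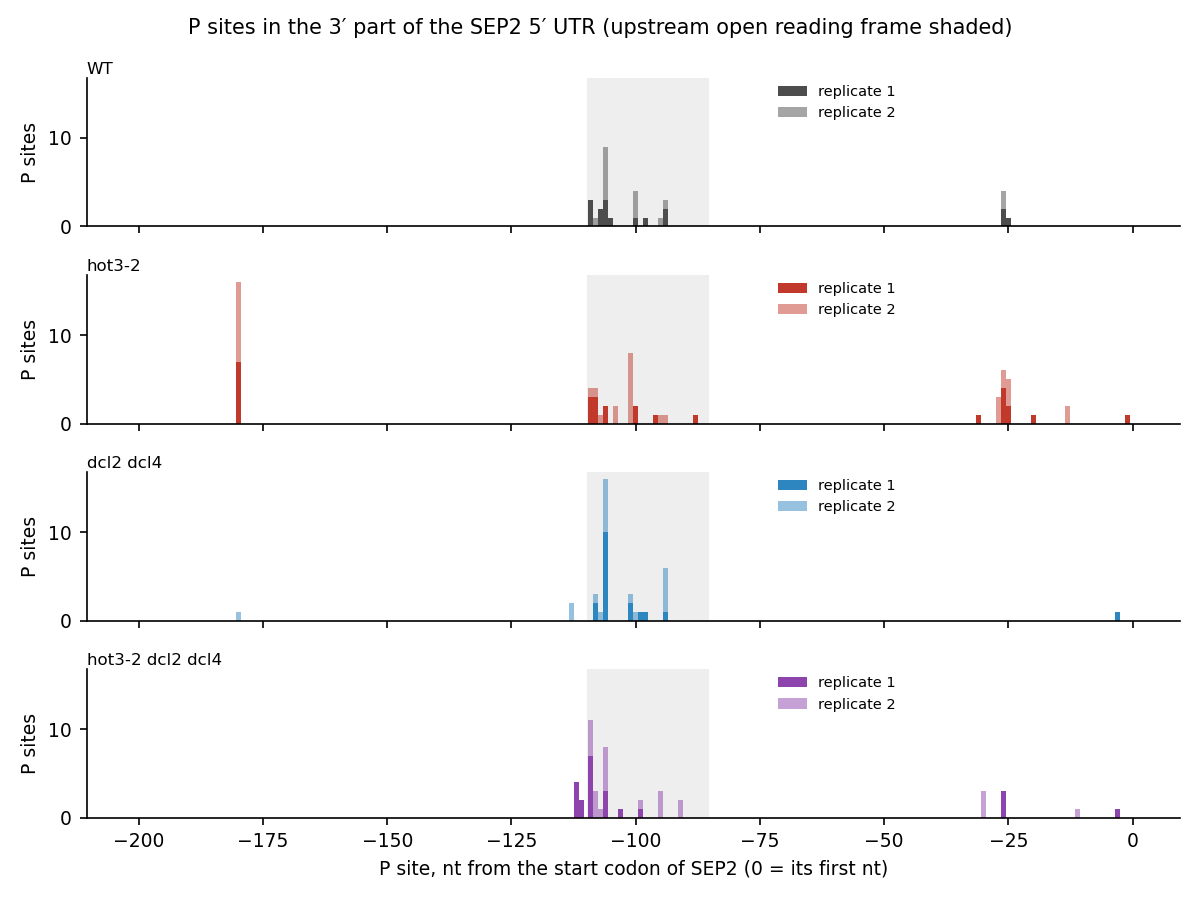
P sites (y axis, count) in the 3′ part of the SEP2 5′ UTR against the distance from the main start codon (x axis, nt), 1 panel per genotype with both replicates, and the upstream open reading frame at -109 to -86 shaded. The shaded frame holds 12 to 19 P sites in every library, and hot3-2 has a further position at -180 with 7 and 9.

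The remaining members gave few values. AG, the class C gene, had 79 footprints and all had their P site in the 5′ UTR (30 and 10 in the WT libraries, 14 and 0 in the hot3-2 libraries, 4 and 13 in the dcl2 dcl4 libraries, 6 and 2 in hot3-2 dcl2 dcl4), 43 of them on nucleotide -460. None lay on its coding sequence, for which the annotation gives an ACG in place of an ATG, so no level of AG translation was had. SHP1 had 40 coding-sequence P sites, between 2 and 10 per library, and 0% of its 21 P sites from 28 nt footprints were in frame. Its listed transcript has a 5′ UTR of 0 nt, against 621 nt in the annotation used here. SEP4 had 50 coding-sequence P sites, with 13 and 8 in the WT libraries, 4 and 4 in the hot3-2 libraries, 7 and 7 in the dcl2 dcl4 libraries, and 1 and 6 in the hot3-2 dcl2 dcl4 libraries, of which 6 lay on the ATG, 1 in WT and 5 in the hot3-2 libraries. CAL had 6 start codon P sites and 2 P sites in the 5′ UTR, both in hot3-2 replicate 1.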

How the data were processed

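Ribosome footprints from RNase I-treated inflorescence lysates (cycloheximide in the buffer, rRNA depletion, gel selection) were sequenced by the authors for 8 libraries of 4 genotypes. Per the labels and the study's methods, adapters were trimmed with cutadapt and reads aligned with STAR to TAIR10. The deposited files list each footprint by transcript with its first and last nucleotide and its P site, in nucleotides from the start and stop codons of the listed transcript. These values are positions, not counts, and the tallies were made here from them. The study's methods set a P-site offset for every footprint length from metaplots at start and stop codons, and name the offset values for 26 to 29 nt alone.

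P sites were tallied per transcript on the coding sequence, the ATG and the 5′ UTR, over 22392 nuclear transcripts. Coding-sequence tallies were normalised with trimmed means of M values, kept at 10 or more in at least 2 libraries and a total of 15 or more, and tested with limma 3.58.1 voom in R 4.3.3. Shares were tested with a quasi-binomial model with limma's moderated dispersion, for genes with a mean of at least 50 P sites per library and 1 on the ATG or in the 5′ UTR, with 0.5 added to each count in the effect size. Each genotype had 1 coefficient, 6 contrasts were taken, and p-values were adjusted by Benjamini-Hochberg over all genes (threshold 0.05). The steps were tested on simulated data. Shares have Wilson 95% intervals, and a count of 0 was read against 3 counts. Both take each footprint as a separate molecule and cover counting error at most. PCR copies are not separate molecules, so both can be too narrow even for counting error. The labels do not say whether replicates came from separate plants, so p-values measure only the spread between these libraries (chi-square per degree of freedom between replicates 2.12 to 3.03, so none was a copy of another).

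All 10 members are named. A gene of another list is named where it passed the test in the contrast described, at most 8 per list, and the 3 genes nearest to PI, the member with most P sites in WT, are named. The members and lists were chosen with earlier results of these data known. Sequences and coordinates are from RefSeq TAIR10.1. Alternatives changed the scaling, the filter, footprint lengths, regions, offsets, the replicate block and the libraries. Those chosen after seeing the data are the first 150 nt (as region or as denominator), the 1 offset of 12 nt, PI without nucleotides 191 to 196, and genes with 1 isoform plus the members. AP1 was not analysed here, and the start codon sequence of SEP2 is not reported here. Python 3.11.15 was used for tallies and figures.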

Additional observations from a re-analysis of the deposited data

Results flagged for a closer look

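The start codon share of PI was the 1 member value whose hot3-2 effect differed between the WT and dcl2 dcl4 backgrounds by a test of the difference itself, -2.89 ± 0.44 on the log2 odds scale with the P sites as listed (adjusted p = 0.00434, limma). The effect was 2.67 in the WT background and -0.22 in the dcl2 dcl4 background, with all 4 hot3-2 and dcl2 dcl4 libraries between 10.6 and 13.1%. Without 1 library it ranged from -3.05 to -2.68 and passed in 1 of the 8 fits. The same difference was -0.03 (adjusted p = 1.00, limma) with 1 offset of 12 nt and -3.06 (adjusted p = 0.479, limma) in 28 nt footprints alone. The P site of the 20 nt footprint that begins 7 nt 5′ of the ATG was given as nucleotide 5 in 5 libraries and as nucleotide 2 in the other 3. This footprint gave 80 of 86 and 77 of 85 P sites on the ATG in the dcl2 dcl4 libraries. With 1 offset of 12 nt the dcl2 dcl4 libraries had 1.56 and 1.85% and the WT libraries 1.70 and 2.72%.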

How the results depend on the processing

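The fall of PI over its coding sequence in the mean hot3-2 effect passed in every alternative that kept all 8 libraries. The highest adjusted p of these was 0.0474 (limma). The log2 difference was -0.54 to -0.30 over all 17 alternatives. No alternative set aside both nucleotides 191 to 196 and nucleotide 5 of PI. Outside nucleotides 191 to 196, PI had 664 and 420 P sites in WT and 343 and 317 in hot3-2. The dcl2 dcl4 libraries had 371 and 382. Those of hot3-2 dcl2 dcl4 had 140 and 189. In the same order, the 20 nt fragment (nucleotide -7 to 12) gave 178 and 29, 53 and 55, 80 and 77, and 12 and 8 of these. A 19 nt fragment (-6 to 12) gave 102 and 49, 56 and 39, 43 and 47, and 10 and 3. The fall of PI without these fragments and the heap was not tested. The rise of PI's start codon share in hot3-2 against WT also passed wherever all 8 libraries were kept, with 2.45 to 3.44 over all 16. The members called for coding-sequence P sites went from 3 to 1 in the mean hot3-2 effect with 28 nt footprints and with the first 150 nt, and to between 1 and 3 when 1 library was left out. In hot3-2 against WT the 1 call became 0 at an adjusted p under 0.01, with 28 nt footprints, with the first 150 nt and without PI nucleotides 191 to 196, and was 0 to 1 with a library left out. In the dcl2 dcl4 background the 2 calls became 1 at an adjusted p under 0.01, with a minimum of 1 count, with 26 to 29 nt footprints, without the first 15 and last 5 codons and with the first 150 nt, became 0 with 28 nt footprints, and were 0 to 2 with a library left out. In dcl2 dcl4 against WT the 0 became 1 with 26 to 29 nt footprints. For the start codon share the 2 calls of the mean effect became 0 with 28 nt footprints and 1 with 26 to 29 nt footprints as listed or with fixed offsets, and were 2 to 3 with a library left out. In hot3-2 against WT these 3 settings gave 1, and left-out libraries 1 to 3. In the dcl2 dcl4 background they gave 0, the ATG with the codon 5′ of it gave 2, 1 offset of 12 nt gave 3, and left-out libraries gave 0 to 1. In dcl2 dcl4 against WT they gave 0, the ATG with the codon 5′ of it gave 2, and left-out libraries 1 to 2. For the 5′ UTR share the 3 calls became 1 without the 3 nt or the 15 nt next to the ATG, 0 with the first 150 nt as denominator, and 0 to 2 with a library left out. In hot3-2 against WT the 0 became 1 without the 15 nt, and in the dcl2 dcl4 background the 0 became 0 to 2 with a library left out.

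Effects that changed sign were those of SEP2 coding-sequence P sites without hot3-2 dcl2 dcl4 replicate 1 (-0.012, with up to 0.25 when another library was left out), AP3 in the dcl2 dcl4 background in the first 150 nt (0.083), the SEP1 start codon share with the codon 5′ of the ATG (-0.0038), with 1 offset (-1.48) and without dcl2 dcl4 replicate 2 (-0.042, with up to 1.06 when another library was left out), the PI start codon share in dcl2 dcl4 against WT with 1 offset (-0.32), and the PI 5′ UTR share without 3 nt (-0.077). The causes were not tested, apart from the offsets, which set the position by construction. Of the single-gene effects, 141 of 191 with a library left out and 121 of 159 under other settings kept direction and side of the threshold.

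Counts over all genes moved by more than 1.5 times in 46 left-out and 33 other settings. For coding-sequence P sites they ranged from 876 to 2377 for the mean effect, 592 to 1932 in hot3-2 against WT, 329 to 1270 in the dcl2 dcl4 background and 114 to 784 in dcl2 dcl4 against WT. For the start codon share they ranged from 436 to 1473, 346 to 1065, 183 to 984 and 0 to 42 in the same order, and for the 5′ UTR share from 107 to 548, 0 to 161, 0 to 336 and 0 to 2.

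Replicate numbers did not pair the samples, since the deviations of same-numbered libraries correlated between -0.0186 and 0.0118 over the 6 pairs of genotypes. With the replicate block the PI start codon share in dcl2 dcl4 against WT was 2.45 (adjusted p = 0.14, limma), so that 0 members passed there, the difference between backgrounds for PI was -2.89 (adjusted p = 0.34, limma), and in the 5′ UTR the members called in the mean effect went from 3 to 1. The block changed no other count of members called. CAL, SEP4 and SHP1 are limited by depth, with at most 55 coding-sequence P sites per library. In 28 nt footprints alone none of the members had enough P sites for the test of the 5′ UTR share, so that alternative gave no value for them.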

Other observations

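The early stop of P sites in PI and the SEP genes was also seen in other genes with several isoforms. Among transcripts with at least 100 coding-sequence P sites, the median share beyond the midpoint of the coding sequence was 52.3% for 7360 transcripts of genes with 1 annotated isoform and 1.79% for 3560 transcripts of genes with 2 or more, and 52.1% of the latter had under 5% of their P sites there. The 28 nt footprints of later exons were mostly out of frame in 44.4% of 2013 transcripts of genes with 2 or more isoforms and in 0.161% of 5604 with 1.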
